A study of Mus musculus with 6 samples.

Results

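The endothelial identity genes are 10 genes by which blood and lymph vessel endothelial cells are commonly recognised. They are Pecam1, Cdh5, Vwf, Emcn, Cldn5, Sox17, Sox18, Prox1, Esam and Plvap. They were taken by symbol among 54532 genes listed in the count table of epididymal fat, and all 10 passed the filter on low counts that left 15751 genes for testing. Male C57BL/6J mice received either a normal diet (ND) with 4.5% fat or a high-fat diet (HFD, D12492) with 60% fat from 4 weeks of age for 16 weeks, and were 20 weeks old at the end of feeding. Whole epididymal fat, a visceral depot, was sequenced in 3 ND and 3 HFD samples, all labelled untreated. The comparison asks how 16 weeks of HFD altered the transcripts of this depot. The labels do not say whether each sample came from 1 mouse, so the p-values below measure the spread between these samples.

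Endothelial cells line every vessel of the fat pad, where they hold the barrier between blood and tissue, deliver lipid to adipocytes and admit leukocytes. Their identity rests on adhesion proteins at cell junctions, on transcription factors of the SOX family, and on secreted or luminal proteins. Lymphatic endothelial cells arise from venous endothelium under the transcription factor Prox1. In whole fat these transcripts come from a minor cell population, and a lower value could come from fewer endothelial cells, less RNA per cell, or more RNA from other cells. These cannot be told apart in bulk tissue.

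The libraries held 16996896 to 18859320 counts assigned to genes, so that 3 counts stood for 0.150 to 0.181 CPM. CPM, the count of a gene scaled to the size of its library, is the unit of level used below unless another is named. Testing with edgeR (quasi-likelihood F-test, two-sided, Benjamini-Hochberg adjustment over all genes tested) called 2504 of 15751 genes at an adjusted p under 0.05, which is 15.9%. Of all genes tested, 9.85% were called higher and 6.04% lower in HFD. Some libraries stood apart. HFD replicate 3 had the highest summed level of 12 macrophage genes, at 8904 CPM beside 5278 and 4137 in the other HFD libraries and 1967 to 2067 in ND. It also had the lowest summed level of 12 adipocyte genes, at 21864 CPM beside 30711 and 42144 in HFD and 44858 to 58050 in ND. ND replicate 3 held 323 CPM of 12 epithelial and kidney genes, against 17.6 to 24.2 CPM elsewhere. Values without HFD replicate 3 are therefore given beside the results that it moves, and some without ND replicate 3.

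Endothelial identity genes were readily detected on both diets, except Prox1, which had only 4 to 96 counts per library. None of the 10 passed the edgeR threshold between HFD and ND. The fitted log2 fold change was below 0 for 9 of the 10 genes, with a median of -0.24, beside 0.01 over all genes tested. At an unadjusted p under 0.05, 1 of the 10 genes was below the threshold, namely Prox1, against 34% of all genes tested. DESeq2 called 1 gene, again Prox1, against 20% of the genes to which it gave an adjusted p. The HFD and ND values overlapped for all 10 genes, whereas 40.9% of all genes tested had groups that did not overlap. The fitted changes of 9 genes lay between -0.49 and 0.05, each with a 95% interval that included 0, and that of Prox1 was -2.45.

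**Figure D1:**
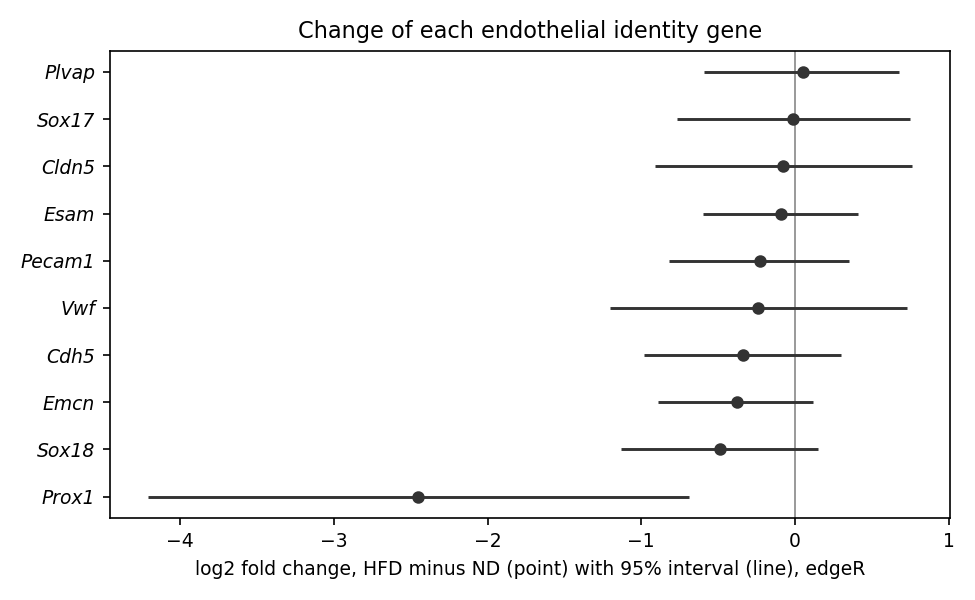
Log2 fold change between HFD and ND (x axis, HFD minus ND, edgeR) for each of the 10 endothelial identity genes (y axis), with points for the estimate and lines for the 95% interval, n = 3 per diet. The intervals of 9 genes include 0, and that of Prox1 runs from -4.21 to -0.69.

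Levels of different genes can be set side by side only per length, so the order of the genes was read from FPKM (fragments scaled to gene length and library size). The order of the top 3 was the same in all 6 libraries. Cldn5 was first, with a mean of 185 FPKM over the 6 libraries and a range from 101 to 268. Cdh5 followed with 76.8 FPKM (40.8 to 92.0) and Pecam1 with 47.6 FPKM (28.7 to 58.7). Esam, Plvap and Sox18 formed a middle group with means of 37.3, 33.1 and 31.4 FPKM, whose order changed between libraries. Vwf, Sox17 and Emcn formed a lower group with means of 6.16, 6.09 and 5.94 FPKM, and these also exchanged places, so neighbours within each group did not differ beyond their spread. Prox1 was last in every library, from 0.0262 to 0.574 FPKM. The ranges of Cldn5 and Cdh5 did not overlap, nor did those of Sox18 and Vwf or of Emcn and Prox1, while Cdh5 overlapped Pecam1 and Pecam1 overlapped Esam across libraries.

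**Figure D2:**
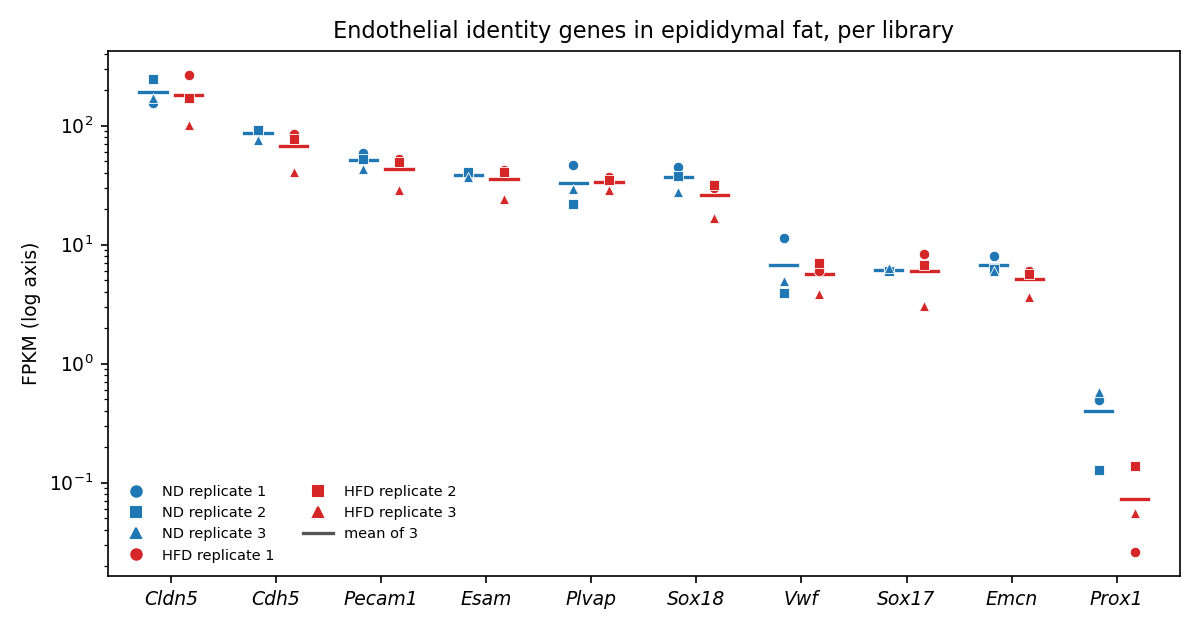
FPKM (y axis, log scale) of the 10 endothelial identity genes (x axis, ordered by mean) in each library, ND in blue and HFD in red, with a symbol per replicate and a bar for the mean of 3. Cldn5 is highest and Prox1 lowest in every library, and the triangle of HFD replicate 3 lies lowest for 7 of the 10 genes.

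Families were read as protein-coding genes whose whole symbol is Cldn, Cdh or Sox followed by a number. Within these claudin, cadherin and Sox genes, Cldn5, Cdh5 and Sox18 led by FPKM. Cldn5, a claudin that seals endothelial tight junctions, made up 68.4% to 87.9% of the summed FPKM of the 23 listed claudin genes. Cdh5, the cadherin of adherens junctions, made up 73.3% to 88.9% of the 23 listed Cdh genes so read. Among them Cdh16, a cadherin of kidney epithelium, was listed at 11.1 FPKM in ND replicate 3 and at 0 elsewhere. Sox18 made up 40.8% to 56.2% of the 19 listed Sox genes, with Sox7, Sox17 and Sox13 next.

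Promoter sequence was at hand in the RefSeq promoter table (GRCm38.p6) for only 3 of the 10 genes, and these 3 are shown. They span the level order: Cldn5 at the top, Emcn in the lower group and Prox1 at the bottom. Prox1 had 2 promoters listed, and the one farther upstream is shown. Each window ends upstream of the annotated gene start and is written 5′ to 3′ on the strand of the gene. Capitals mark short motifs read on both strands, with no overlap between different motifs in these windows. The letters GGAAG were searched as the core bound by ETS factors. The letters ACAAT stood for the SOX motif and TATAA for the TATA box. The last motif was CCAAT, bound by the nuclear factor NF-Y. Cldn5 is chr16:18776597-18776846 on the plus strand, Emcn is chr3:137340828-137341066 on the plus strand, and Prox1 is chr1:190170828-190171077 on the minus strand.
Cldn5: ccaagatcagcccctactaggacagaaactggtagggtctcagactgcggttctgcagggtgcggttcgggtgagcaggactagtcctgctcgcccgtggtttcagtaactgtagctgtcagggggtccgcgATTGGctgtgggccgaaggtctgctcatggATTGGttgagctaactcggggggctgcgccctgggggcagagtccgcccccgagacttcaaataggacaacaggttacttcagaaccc
Emcn: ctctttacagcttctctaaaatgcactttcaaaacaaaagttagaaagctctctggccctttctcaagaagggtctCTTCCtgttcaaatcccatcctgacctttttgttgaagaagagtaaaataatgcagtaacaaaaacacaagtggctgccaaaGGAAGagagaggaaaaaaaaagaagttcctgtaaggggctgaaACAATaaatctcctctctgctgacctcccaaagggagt
Prox1: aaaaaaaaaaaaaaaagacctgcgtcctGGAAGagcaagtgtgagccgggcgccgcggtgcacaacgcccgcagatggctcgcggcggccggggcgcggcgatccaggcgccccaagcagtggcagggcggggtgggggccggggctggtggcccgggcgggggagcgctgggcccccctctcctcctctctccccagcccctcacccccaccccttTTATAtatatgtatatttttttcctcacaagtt
The Cldn5 window held 2 matches to the NF-Y motif and none to the others. The Emcn window held 2 ETS matches and 1 SOX match, and the Prox1 window held 1 ETS match and 1 TATA match. These letters are common: of 32851 promoter windows in the table, 64.1% held the ETS core, 27.7% the SOX motif, 22.8% the TATA box and 33.8% the NF-Y motif. The GC content was 59.6% for Cldn5, 40.6% for Emcn and 64.8% for Prox1, against a median of 52.4% over all windows. A match describes the letters only, since no binding was measured here.

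The junction genes were examined first. Pecam1 (CD31, ENSMUSG00000020717, chromosome 11, 106654217 to 106750628) encodes the platelet and endothelial adhesion molecule used to stain vessels. It stood at 359, 322 and 270 CPM in ND and at 326, 304 and 178 CPM in HFD. The first 2 HFD libraries lay within the ND range and HFD replicate 3 below it. The log2 fold change was -0.23 (SE 0.25, 95% interval -0.82 to 0.35, edgeR adjusted p = 0.544).

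Cdh5 (VE-cadherin, ENSMUSG00000031871, chromosome 8, 104101625 to 104144511) stood at 375, 379 and 317 CPM in ND and at 354, 320 and 171 CPM in HFD. Again only HFD replicate 3 fell outside the ND range. The log2 fold change was -0.34 (SE 0.27, 95% interval -0.98 to 0.30, edgeR adjusted p = 0.416), and it was -0.10 without that library. Pecam1 shrank likewise, to -0.03.

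Esam (ENSMUSG00000001946, chromosome 9, 37528078 to 37538319), an immunoglobulin-type adhesion molecule of endothelial tight junctions, had 107, 115 and 105 CPM in ND and 121, 117 and 68.9 CPM in HFD. The first 2 HFD libraries lay above all ND libraries and HFD replicate 3 below them. Its log2 fold change was -0.09 (SE 0.22, 95% interval -0.60 to 0.41, edgeR adjusted p = 0.797) and turned to 0.11 without HFD replicate 3.

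Cldn5 (ENSMUSG00000041378, chromosome 16, 18776847 to 18778262) had 216, 341 and 243 CPM in ND and 378, 238 and 143 CPM in HFD. The highest and the lowest of the 6 values were both in HFD, and the spread between HFD libraries (253 ± 118 CPM, SD, n = 3) exceeded the distance between the diet means. Its log2 fold change was -0.08 (SE 0.35, 95% interval -0.91 to 0.76, edgeR adjusted p = 0.901). The sign turned to 0.19 without HFD replicate 3 and to 0.14 without ND replicate 2, the ND library with the highest level.

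Among the genes of secreted and luminal proteins, Vwf (ENSMUSG00000001930, chromosome 6, 125546774 to 125686679) encodes von Willebrand factor, which endothelial cells store and release to capture platelets. It had 178, 61.4 and 78.6 CPM in ND and 95.4, 112 and 62.1 CPM in HFD. ND replicate 1 lay above all others, and the remaining 5 libraries were mixed between diets. The log2 fold change was -0.24 (SE 0.41, 95% interval -1.20 to 0.73, edgeR adjusted p = 0.721), without ND replicate 1 it was 0.36, and without HFD replicate 3 it was -0.05. Vwf is also made by megakaryocytes. Of 10 platelet genes, 5 could be tested and 1, Treml1, was called higher in HFD (2 without HFD replicate 2 and by DESeq2). Over all genes tested, 9.85% were called higher by edgeR, and 2368 of 16298 without HFD replicate 2. DESeq2 called 20% in either direction. Treml1 had 1, 0 and 0 counts in ND and 30, 44 and 32 counts in HFD (log2 fold change 6.36, edgeR adjusted p = 0.00619), so it was near the floor in ND. The summed level of the list was 54.8 to 62.3 CPM in ND and 65.8 to 120 CPM in HFD. Most of this sum was Pf4, at 50.3, 56.8 and 54.4 CPM in ND and 91.3, 57.3 and 112 CPM in HFD. Pf4 was highest in HFD replicate 3, as was the macrophage sum, and the part of macrophage RNA in it was not tested. Ppbp, Gp1ba and Itga2b, the remaining tested genes, had log2 fold changes of 0.23, -0.44 and 0.19. The part of platelet RNA in the Vwf values was not tested.

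Emcn (endomucin, ENSMUSG00000054690, chromosome 3, 137341067 to 137432185), a sialomucin of capillary and venous endothelium, had 42.9, 33.0 and 32.1 CPM in ND and 32.5, 30.7 and 19.8 CPM in HFD. HFD replicate 1 lay just above the lowest ND library, and the other HFD libraries lay below all of ND. Its log2 fold change of -0.38 (SE 0.21, 95% interval -0.89 to 0.12, edgeR adjusted p = 0.255) became -0.21 without HFD replicate 3.

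Plvap (ENSMUSG00000034845, chromosome 8, 71497765 to 71511752) forms the diaphragms of endothelial fenestrae and caveolae. It had 91.5, 42.5 and 58.0 CPM in ND and 72.6, 69.1 and 56.8 CPM in HFD. All 3 HFD values lay between the lowest and the highest ND value. Its log2 fold change was the 1 fitted value above 0, at 0.05 (SE 0.27, 95% interval -0.59 to 0.68, edgeR adjusted p = 0.917), and it was -0.17 without ND replicate 2.

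The SOX genes encode related transcription factors that act in arterial specification and in vessel and lymphatic development. Sox17 (ENSMUSG00000025902, chromosome 1, 4490931 to 4497354) had 28.9, 27.8 and 30.0 CPM in ND, the tightest triplet among the 10 genes, and 39.6, 31.9 and 14.6 CPM in HFD. As for Esam, the first 2 HFD libraries lay above every ND library and HFD replicate 3 below every one. Its log2 fold change was -0.01 (SE 0.32, 95% interval -0.77 to 0.75, edgeR adjusted p = 0.984), and without HFD replicate 3 it was 0.29 (adjusted p = 0.196).

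Sox18 (ENSMUSG00000046470, chromosome 2, 181669836 to 181671640) had 71.5, 60.4 and 44.5 CPM in ND and 47.9, 50.7 and 27.0 CPM in HFD. The HFD values lay in the lower part of the ND range or below it. Its log2 fold change was -0.49 (SE 0.27, 95% interval -1.13 to 0.15, edgeR adjusted p = 0.247), which became -0.27 without HFD replicate 3. Sox7, the remaining gene of the same SOX subgroup and part of the pan-endothelial list below, had a log2 fold change of -1.0 (SE 0.31, edgeR adjusted p = 0.0709). It was singled out after its values were seen. The 3 related genes thus gave fitted values of -0.01, -0.49 and -1.0 in the same libraries, and the differences between them were not tested.

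Prox1 (ENSMUSG00000010175, chromosome 1, 190118035 to 190170714) showed the widest spread. It had 76, 18 and 96 counts in ND and 4, 19 and 8 counts in HFD. In CPM these are 4.10, 1.04 and 4.80 in ND and 0.219, 1.14 and 0.461 in HFD. ND replicates 1 and 3 were high, HFD replicates 1 and 3 were low, and ND replicate 2 lay just below HFD replicate 2, so that the diets overlapped. The log2 fold change was -2.45, or 0.183 of the ND level (SE 0.75, 95% interval -4.21 to -0.69, edgeR unadjusted p = 0.0129, adjusted p = 0.0653). The call depended on the test and on 1 library: DESeq2 gave an adjusted p of 0.00923 and a log2 fold change of -2.47, and edgeR without HFD replicate 2 gave 0.0290 and -3.27. That edgeR fit called 3940 genes over the whole table, beside 2504 with every library. Leaving out HFD replicate 3 gave -2.30 (adjusted p = 0.143), and leaving out ND replicate 3 gave -2.12 (adjusted p = 0.152). Prox1 had 4 to 96 counts per library and the largest standard error among the endothelial identity genes. The part of counting error in this spread was not tested.

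The other lymphatic endothelial genes were therefore set beside Prox1. Of 10 listed genes, 8 could be tested and edgeR called none, where it called 15.9% of all genes tested. An unadjusted p under 0.05 (edgeR) was found for 4, against 34% of all genes tested. DESeq2 called 2 lymphatic genes lower, and it called 20% of all genes to which it gave an adjusted p, in either direction. The median log2 fold change of the 8 was -0.80, and -0.56 without HFD replicate 3. The genes with the highest level, Maf and Lyve1, are also transcribed in macrophages. Maf, a transcription factor, had 124, 104 and 111 CPM in ND and 99.7, 109 and 112 CPM in HFD, with a log2 fold change of -0.08 (edgeR adjusted p = 0.677). Lyve1, a hyaluronan receptor, had 60.5, 55.5 and 47.7 CPM in ND and 44.3, 45.7 and 34.2 CPM in HFD, with a log2 fold change of -0.40 (edgeR adjusted p = 0.117). Neither passed the threshold, and only Lyve1 had ND and HFD libraries that did not overlap.

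Mmrn1 and Reln were singled out after their values were seen, because they varied with Prox1. Mmrn1, which encodes a secreted multimerin, had 709, 82 and 502 counts in ND and 2, 147 and 19 counts in HFD. Reln, which encodes the secreted glycoprotein reelin, had 235, 34 and 201 counts in ND and 10, 50 and 9 counts in HFD. As for Prox1, ND replicate 2 lay below HFD replicate 2, and the other ND libraries lay above all HFD libraries. Their log2 fold changes were -2.77 (SE 1.2, edgeR adjusted p = 0.151) and -2.61 (SE 0.89, edgeR adjusted p = 0.0869). Flt4 shared this order of libraries, with a log2 fold change of -0.47. Klhl4 and Tbx1 did not, since their diets did not overlap, with log2 fold changes of -1.14 and -2.35. Pdpn went the other way, the 1 value above 0 among the 8 tested, at 0.51. It had 25.4, 25.8 and 33.2 CPM in ND and 28.4, 27.3 and 64.6 CPM in HFD. Without HFD replicate 2, edgeR called 4 lymphatic genes lower, and without HFD replicate 3 it called 1. Over all genes tested, these fits called 1572 of 16298 and 743 of 16238 lower, beside 952 of 15751 with every library. Ccl21a, a lymphatic chemokine, had 1 count over all libraries. Over the 6 libraries, the genes whose centred log2 CPM lay nearest to that of Prox1 among 13393 genes were Actg2, Gm8895 and 6030408B16Rik, with root mean square differences of 0.386, 0.394 and 0.430 on the log2 scale. Actg2 encodes an actin of visceral smooth muscle, and it had 153, 16 and 98 counts in ND and 4, 26 and 12 counts in HFD. These 3 were looked up after the Prox1 values were seen, and the smooth muscle gene Cnn1 below was also low in ND replicate 2.

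**Figure D3:**
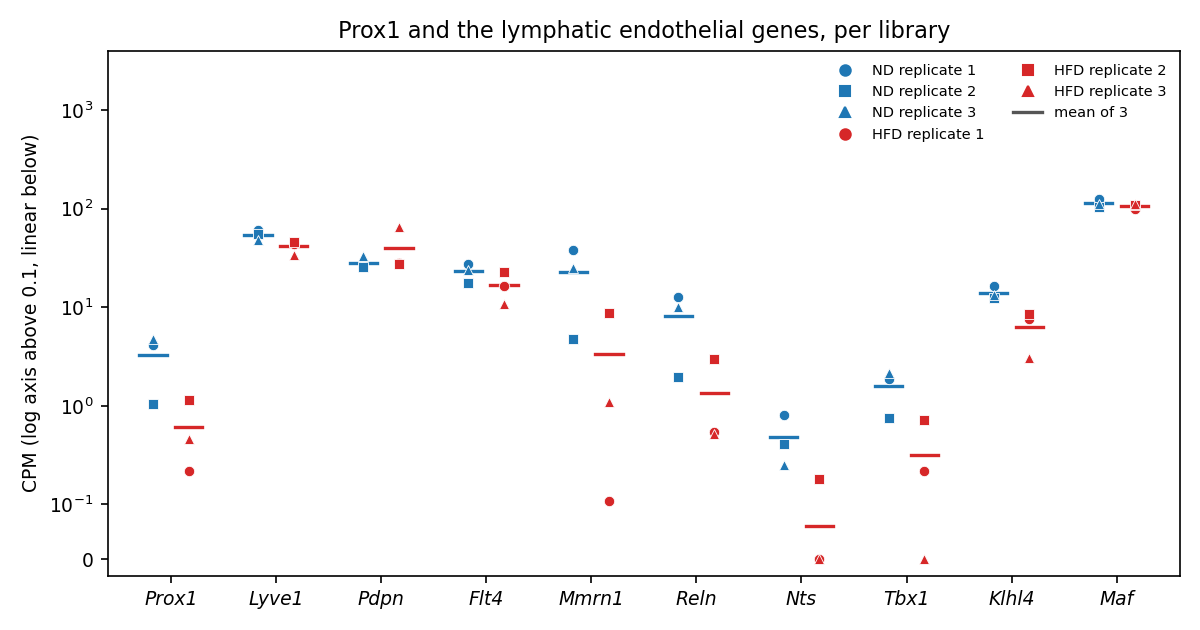
CPM (y axis, log scale above 0.1 and linear below) of Prox1 and 9 lymphatic endothelial genes (x axis) in each library, ND in blue and HFD in red, with a symbol per replicate and a bar for the mean of 3. Prox1, Mmrn1, Reln and Flt4 have the ND square below the HFD square and the other ND symbols above every HFD symbol. Maf lies between 99.7 and 124 CPM in every library.

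To separate a level shared by endothelial transcripts from that of 1 gene, each gene was divided by Cdh5 within its library. Esam alone gave ratios that did not overlap: its log2 ratios to Cdh5 were -1.80, -1.72 and -1.60 in ND and -1.55, -1.45 and -1.31 in HFD. The means differed by 0.27, with an exact two-sided permutation p = 0.10, the smallest that 3 against 3 samples allow. The adjusted permutation p was 0.600 over 9 ratios. When Pecam1 replaced Cdh5 as the reference, the difference was 0.14 and the diets overlapped, so the separation held for Cdh5 as reference only. For the other 8 genes the ratios to Cdh5 overlapped. Emcn kept the same mean log2 ratio of -3.32 in both diets (SD 0.20 in ND and 0.18 in HFD, n = 3). Pecam1 differed by 0.13, Vwf by 0.28, Cldn5 by 0.25, Sox17 by 0.28 and Plvap by 0.52, all higher relative to Cdh5 in HFD, and Sox18 by -0.11. Single libraries moved several of these. The Vwf difference was 0.70 without ND replicate 1 and -0.08 without ND replicate 2. That of Cldn5 was 0.07 without ND replicate 1, 0.39 without ND replicate 2 and 0.10 without HFD replicate 1. That of Plvap was 0.78 without ND replicate 1, 0.21 without ND replicate 2 and 0.30 without HFD replicate 3. That of Sox18 turned to 0.01 without ND replicate 1, and that of Pecam1 was 0.08 without HFD replicate 3 and that of Sox17 was 0.18 without HFD replicate 1. Prox1 differed by -2.09 (exact permutation p = 0.200). With this number of samples none of these ratios could pass a threshold of 0.05.

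Cdh5 itself had close companions. The tested genes nearest to it over the 6 libraries were Ablim3, Notch4 and Sept4, with root mean square differences of 0.0482, 0.0564 and 0.0579 on the log2 scale. Notch4, a Notch receptor of endothelial cells, had 67.8, 69.4 and 57.0 CPM in ND and 66.1, 64.4 and 32.6 CPM in HFD. Ablim3 had 118, 118 and 104 CPM in ND and 114, 110 and 56.0 CPM in HFD. Sept4 had 64.3, 68.3 and 54.3 CPM in ND and 60.4, 56.4 and 32.7 CPM in HFD. These 3 genes were picked for their nearness to Cdh5 in the same libraries. That they shared its low value in HFD replicate 3 therefore follows from the choice.

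HFD replicate 3 had the lowest level of the 6 libraries for 7 of the 10 endothelial identity genes. The exceptions were Vwf and Plvap, lowest in ND replicate 2, and Prox1, lowest in HFD replicate 1. Over all genes tested, 28.4% were lowest there. The summed CPM of the 10 genes was 1183 to 1474 in ND, 1467 and 1275 in the first 2 HFD libraries and 742 in HFD replicate 3. Without that library the median log2 fold change of the 10 genes was -0.04 and 6 of 10 were below 0, whereas without ND replicate 3 the median was -0.41 and all 10 were below 0. The same library was lowest for 25 of 27 other pan-endothelial genes, 10 of 10 capillary genes, 11 of 12 adipocyte genes, 8 of 8 mesothelial genes and 5 of 5 red blood cell genes that were tested. It was lowest for 8 of 10 arterial, 9 of 12 pericyte and smooth muscle, 5 of 8 lymphatic, 5 of 8 angiogenic tip cell and 3 of 4 epithelial and kidney genes. It was lowest for only 2 of 7 venous genes, 2 of 8 adipocyte progenitor genes, 1 of 12 macrophage genes and 0 of 5 platelet genes. Its macrophage sum was the highest, and the part of macrophage RNA in the lower endothelial values was not tested.

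Other endothelial gene lists were counted in the same fit. Over all genes tested, 9.85% were called higher and 6.04% lower. An unadjusted p under 0.05 (edgeR) was found for 34%, and 40.9% did not overlap between diets. The edgeR counts from all 6 libraries in this and the following lists stand beside these shares. DESeq2 called 20% of the genes to which it gave an adjusted p. Over the whole table, edgeR called 492, 591 and 1003 genes without ND replicate 1, 2 and 3. It called 474, 3940 and 2095 without HFD replicate 1, 2 and 3, beside 2504 with every library. Of 28 other pan-endothelial genes, 27 could be tested, none was called, and 7 had an unadjusted p under 0.05. DESeq2 called 4 of them lower. Their median log2 fold change was -0.23, and 23 of 27 were below 0, but without HFD replicate 3 the median was -0.03. Ptprb, the vascular endothelial phosphatase, had 326, 316 and 270 CPM in ND and 277, 328 and 139 CPM in HFD. Cd34, a sialomucin of endothelial and stromal progenitor cells, had 237, 221 and 215 CPM in ND and 196, 188 and 171 CPM in HFD, without overlap but with an adjusted p of 0.162 (edgeR). Etv2, an embryonic endothelial factor, had 0 counts in all libraries. Without HFD replicate 2 edgeR called 1 gene higher and 4 lower, and without HFD replicate 3 it called 2 lower. Over all genes tested, the first of these fits called 2368 of 16298 higher and 1572 lower, and the second called 743 of 16238 lower.

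The arterial list gave 1 call and the capillary list none, where 6.04% of all genes tested were called lower. Of 10 arterial genes, Gja4, a connexin of arterial gap junctions, was called lower, with 19.2, 16.2 and 24.0 CPM in ND and 9.45, 11 and 4.55 CPM in HFD (log2 fold change -1.25, SE 0.33, edgeR adjusted p = 0.0432). No ND and HFD library overlapped. The call was lost without any 1 of the ND libraries or without HFD replicate 1. None of 10 capillary genes was called, and 1 had an unadjusted p under 0.05. DESeq2 called 1 of them lower, as did edgeR without HFD replicate 2. Rgcc had 490, 481 and 438 CPM in ND and 256, 358 and 128 CPM in HFD, with an adjusted p of 0.107 (edgeR). Timp4 had 309, 268 and 255 CPM in ND and 164, 328 and 60.6 CPM in HFD, which overlapped.

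The venous list split. Of 8 listed genes, 7 were tested, 2 rose and 1 fell. Icam1 and Vcam1, adhesion receptors for leukocytes, rose by 0.74 and 0.62 on the log2 scale (SE 0.17 for both, edgeR adjusted p = 0.0318 and 0.0488). Icam1 had 26.1, 21.6 and 19.4 CPM in ND and 39.4, 30.1 and 42.3 CPM in HFD, and Vcam1 had 28.6, 21.4 and 26.8 CPM in ND and 40.3, 32.5 and 45.7 CPM in HFD. Neither gene overlapped between diets, and macrophages also transcribe both. Nr2f2, the transcription factor of venous fate that acts upstream of Prox1, fell by 0.98 on the log2 scale (SE 0.25, edgeR adjusted p = 0.0409), from 40.5, 28.2 and 50.2 CPM in ND to 20.7, 24.4 and 15.3 CPM in HFD. Nr2f2 is also transcribed in stromal cells. Without any 1 of the ND libraries or without HFD replicate 1 none of the 3 calls remained, and without HFD replicate 3 neither rise was called.

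Among 8 angiogenic tip cell genes, 1 fell. Aplnr, the receptor for apelin, had 112, 96.4 and 86.1 CPM in ND and 58.3, 42.0 and 36.2 CPM in HFD (log2 fold change -1.11, SE 0.20, edgeR adjusted p = 0.0149). The HFD libraries all lay below the ND libraries, and the call was lost without ND replicate 1 or ND replicate 2, while 1 other gene was called higher without HFD replicate 2.

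Genes of the cells around the vessels included 2 that fell among 12 pericyte and smooth muscle genes. Rgs5, a pericyte regulator of G protein signalling, had 473, 451 and 405 CPM in ND and 229, 231 and 134 CPM in HFD (log2 fold change -1.16, SE 0.23, edgeR adjusted p = 0.0192). Cnn1, a calponin of contractile smooth muscle, had 11.8, 2.78 and 10.3 CPM in ND and 0.820, 1.63 and 0.346 CPM in HFD (log2 fold change -3.16, SE 0.70, edgeR adjusted p = 0.0268). Neither gene overlapped between diets. Neither call remained without ND replicate 1 or without ND replicate 3, and 1 of the 12 genes was called lower without ND replicate 2 or without HFD replicate 1.

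Other cell types gave the frame. Of 12 macrophage genes, 9 rose and none fell, among them Adgre1, Cd68, C1qb and Csf1r. Without ND replicate 1, ND replicate 2 or HFD replicate 1 only 3 were called, and without ND replicate 3 only 5. Of 12 adipocyte genes, Lep rose and Retn, Slc2a4 and Cfd fell, calls that were all lost without any 1 of the ND libraries or without HFD replicate 1, while 6 genes were called lower without HFD replicate 2. No gene was called among 5 tested red blood cell genes (Hbb-bs and Hba-a1 highest), 8 adipocyte progenitor genes (Dpt and Col15a1 highest), 8 mesothelial genes (Upk3b and Msln highest) or 4 tested epithelial and kidney genes (Krt8 and Krt7 highest). At an unadjusted p under 0.05 these lists held 0, 1, 0 and 1 genes in the same order, and DESeq2 called 1 gene, an adipocyte progenitor gene that was lower.

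**Figure D4:**
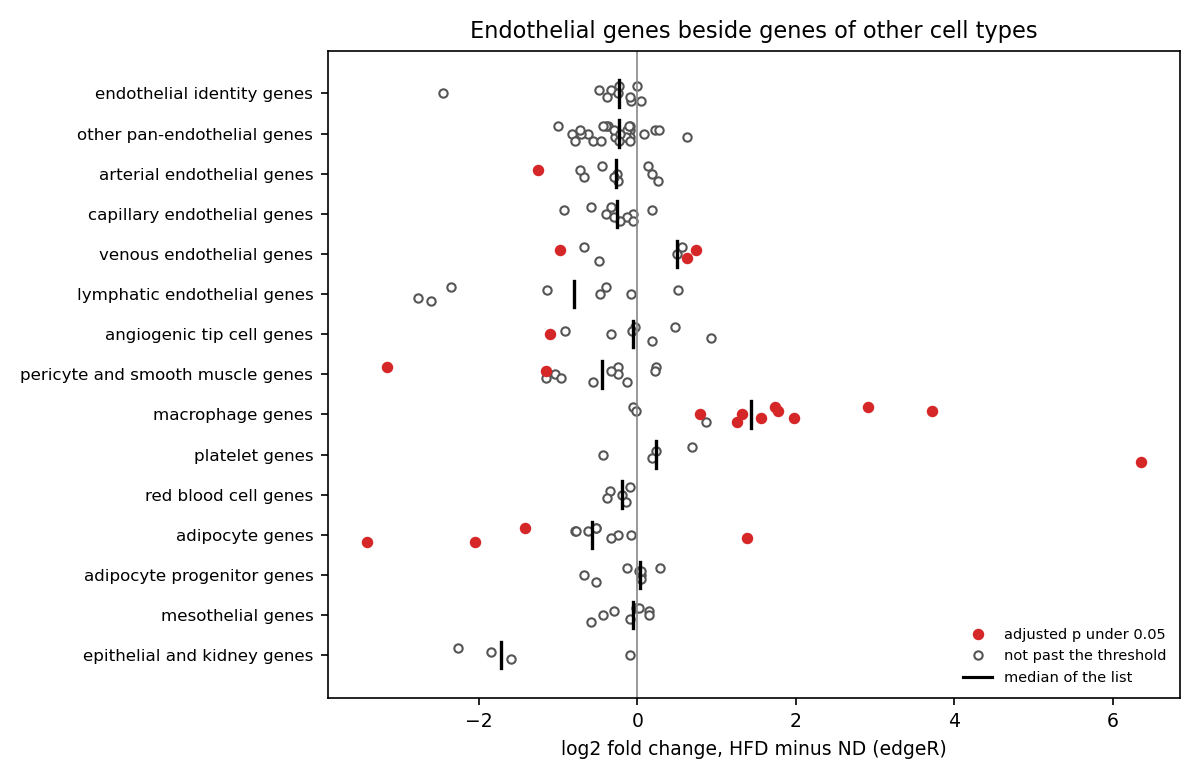
Log2 fold change between HFD and ND (x axis, HFD minus ND, edgeR) of every tested gene in 15 lists, the endothelial identity genes included (y axis), filled red where the adjusted p is under 0.05 and open otherwise, with a black bar at the median of the list. The endothelial identity genes and the other pan-endothelial genes lie mostly just left of 0 without a filled point. Prox1 and 3 lymphatic genes lie beyond -2, as do Cnn1, Cfd, Retn and Krt8 in other lists. Of the 12 macrophage genes, 10 lie right of 0.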

How the data were processed

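Total RNA of whole epididymal fat in 3 samples from ND-fed and 3 from HFD-fed mice was sequenced as paired-end libraries (NEBNext Ultra kit). Both deposited tables were used. The authors deposited raw counts per Ensembl gene and FPKM values per gene, the latter scaled by the authors for length and library. The study's methods name TopHat and Cufflinks on GRCm38 (mm10), whereas the submitters' processing notes name CASAVA 1.8, fastp, HISAT2 2.0.5, featureCounts 1.5.0-p3 and DESeq2 1.20.0 with the human builds GRCh38 and hg38. The identifiers are mouse Ensembl genes, and which route made the tables is not given in the sources used here. Gene names and coordinates came from GENCODE M21 (GRCm38), which named 54409 of 54532 identifiers.

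Counts were tested with edgeR 4.0.16 in R 4.3.3 (filterByExpr, TMM, glmQLFit with robust estimation, glmQLFTest, Benjamini-Hochberg, threshold 0.05), with diet as the only term. Intervals are 95% intervals from the standard error and total degrees of freedom. CPM used TMM-scaled library sizes. FPKM served to order levels. Ratios to Cdh5 were compared by exact permutation (SciPy 1.17.1). DESeq2 1.42.0, limma 3.58.1 with voom and on log2(FPKM + 1), other scalings and filters, a replicate block and leaving out each replicate were alternatives. The scripts were tested on simulated data. Strand use in counting is not given in the sources used here. Exons of Sox17 and Prox1 overlap genes on the opposite strand, with 8 and 1 counts in all. The CPM of 3 counts, given as a floor, covers counting error only. The FPKM filter asked for 0.5 FPKM in at least 3 libraries.

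The 10 genes and the 15 other lists were chosen with earlier results of these data known. The result of 1 of these lists is not reported here. All 10 genes were named. From each list up to 4 called genes with the lowest p were named, or the 2 with the highest mean CPM where none was called, and for Cdh5 and any called gene the 3 genes nearest in centred log2 CPM (average log2 CPM above 1). The promoter motifs, Sox7, Etv2 and the nearest genes of Prox1 fell outside that rule. So did the platelet genes besides Treml1 and the lymphatic genes besides Maf and Lyve1. All of these were chosen after values were seen.

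Same-numbered ND and HFD libraries did not deviate together: the correlations of their deviations from the diet means, across genes, were -0.0858, -0.0556 and -0.00532.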

Additional observations from a re-analysis of the deposited data

How the results depend on the processing

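Of the 10 endothelial identity genes, edgeR called none in all but 1 of its settings and limma called none, whereas DESeq2 called 1 (Prox1, lower). Leaving out 1 replicate at a time gave 0 to 1 called genes, the 1 being Prox1 without HFD replicate 2. The log2 fold change of Prox1 ran from -3.27 to -2.07 over these fits, was -2.43 with a replicate block (adjusted p = 0.163) and was -0.37 with log2(FPKM + 1) and no filter, where the pseudocount exceeds every FPKM value of the gene. Its sign was the same in every alternative that gave it a value. Over the alternatives its adjusted p lay between 0.00923 and 0.213. Prox1 did not reach 0.5 FPKM in at least 3 libraries, the filter of the FPKM fits, so these gave it no value. With the replicate block no gene of the 10 was called and 2 had an unadjusted p under 0.05. The numbers do not pair the samples.

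The fitted values near 0 had no stable sign. Leaving out 1 replicate at a time gave ranges of -0.51 to 0.36 for Vwf (0.36 without ND replicate 1), -0.51 to 0.19 for Cldn5 (0.14 without ND replicate 2 and 0.19 without HFD replicate 3), -0.34 to 0.29 for Sox17 and -0.26 to 0.11 for Esam (both highest without HFD replicate 3), and -0.17 to 0.40 for Plvap (-0.17 without ND replicate 2, and -0.05 without ND replicate 3 or without HFD replicate 1). No other alternative turned a sign. Pecam1, Cdh5, Emcn and Sox18 stayed below 0 throughout.

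The number of genes called over the whole table ran from 474 without HFD replicate 1 to 3940 without HFD replicate 2, and was 1886 with the replicate block and 910 with log2(FPKM + 1) and no filter, beside 2504. Among the counts of called genes per list and direction under the alternatives, 54 moved and 156 did not. A change by over 1.5 times, or any change from 0, was taken as moved. A count of 0 in both fits was taken as not moved, so the 156 include lists in which nothing was called. DESeq2 called 5 pericyte and smooth muscle genes lower beside 2, 2 venous genes lower beside 1, 2 angiogenic tip cell genes lower beside 1 and 1 higher beside 0, and 5 adipocyte genes lower beside 3. With 3 samples per diet, the log2 standard errors of the 10 genes were 0.21 to 0.75, which limits how small a change could be called. Where DESeq2 and edgeR differed, the cause was not tested.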
